A study of Mus musculus with 8 samples.

Results

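A set of 9 complement genes was followed across all libraries of the study: C1qa, C1qb, C1qc, C2, C4b, C3, Cfb, C3ar1 and C5ar1. They were taken by symbol from the count files, and all 9 were found among the 25780 gene symbols counted. No rule on their measured values picked them, but the list was chosen with earlier results of these data known. RNA came from mouse dorsal root ganglia, which hold the cell bodies of the sensory neurons along the spinal cord. The knockout group, labelled G9a-iKO and written iKO here, had the genotype Avil-iCreERT2/AJwo /G9aflox/flox: both alleles of Ehmt2, the gene of the histone methyltransferase G9a, were floxed, and an inducible Cre was driven by Avil, a gene of sensory neurons. The WT group held littermates without Cre, and the sources used here do not say whether these carried floxed alleles or received the inducer. Mice of both genotypes were given vehicle or CFA (complete Freund's adjuvant, an agent that causes lasting inflammation) in the left paw, and tissue was taken 14 days later. The 4 groups, WT vehicle, WT CFA, iKO vehicle and iKO CFA, held 2 libraries each. Age, sex, the side of the ganglia, and whether libraries were made from single animals or pools are not given in the sources used here, so a p-value here weighs only the spread from library to library, which may be technical.

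Complement is a cascade of proteins that tags cells and debris and calls in immune cells. In the classical pathway, C1q, built from the A, B and C chains that C1qa, C1qb and C1qc encode, binds its target and sets off cleavage of C4 and C2, which together form an enzyme that cleaves C3. In the alternative pathway, factor B, the product of Cfb, joins C3 fragments to make another such enzyme. Cleavage of C3 and C5 releases the peptides C3a and C5a, which act on the receptors encoded by C3ar1 and C5ar1. In nervous tissue, C1q is made mainly by macrophages and microglia. In the mouse, C2, Cfb and C4b lie in the MHC class III region, beside Ehmt2.

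The libraries held 26312614 to 42971823 counted reads, and the lowest count of any of the 9 genes was 41 reads (C5ar1 in iKO vehicle library 1). Levels are given as CPM, read counts set to a common library size with edgeR's TMM scaling. A change is a log2 fold change ± its standard error (SE) from edgeR's quasi-likelihood test over all 8 libraries, and the adjusted p is that test's p after Benjamini-Hochberg adjustment over the 20235 genes tested; rose and fell are used of changes with an adjusted p under 0.05. Ehmt2 stood at 74.4, 65.4, 74.2 and 61.3 CPM in the WT libraries and at 34.0, 31.6, 45.0 and 44.2 CPM in the iKO libraries, so the groups did not overlap. Its change from WT to iKO was -1.09 ± 0.18 under vehicle (adjusted p = 0.00655) and -0.60 under CFA (adjusted p = 0.154), where it passed with DESeq2 (0.0368) and without WT CFA library 2 (0.0032). The vehicle call did not hold without WT vehicle library 1 (adjusted p = 0.0662) or either iKO vehicle library (0.0693 and 0.0958), with 1.59e-07 to 0.0958 over 16 alternatives. All 12 pan-neuronal markers had reads in every library. The WT vehicle libraries stood apart in lymphocyte and plasma cell markers, with 877 and 2133 CPM summed over 10 genes against 3.77 to 53.5 elsewhere, and WT vehicle library 1 also in skeletal muscle markers (424 against 1.36 to 6.97 CPM over 8 genes). Both WT CFA libraries differed widely from each other, with 12.1% of reads on 13 mitochondrial genes in library 2 against 3.94% in library 1.

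All 9 complement genes had their highest group mean in WT vehicle or in iKO CFA, and estimates of opposite sign for CFA in WT and in iKO were their shared feature. From vehicle to CFA, all 9 estimates were negative in WT (-4.09 to -0.30) and all 9 were positive in iKO (0.50 to 2.79). The test of that difference, the response of iKO minus the response of WT, passed for 8 of 9 genes, all but C2, where 9.36% of all genes tested passed it in either direction, 6.19% in the positive and 3.17% in the negative one. The median difference over the 9 genes was 2.66, against -0.04 over all genes. Because the samples are bulk tissue, fewer cells of a type and less RNA per cell cannot be told apart in any value below.

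**Figure D1:**
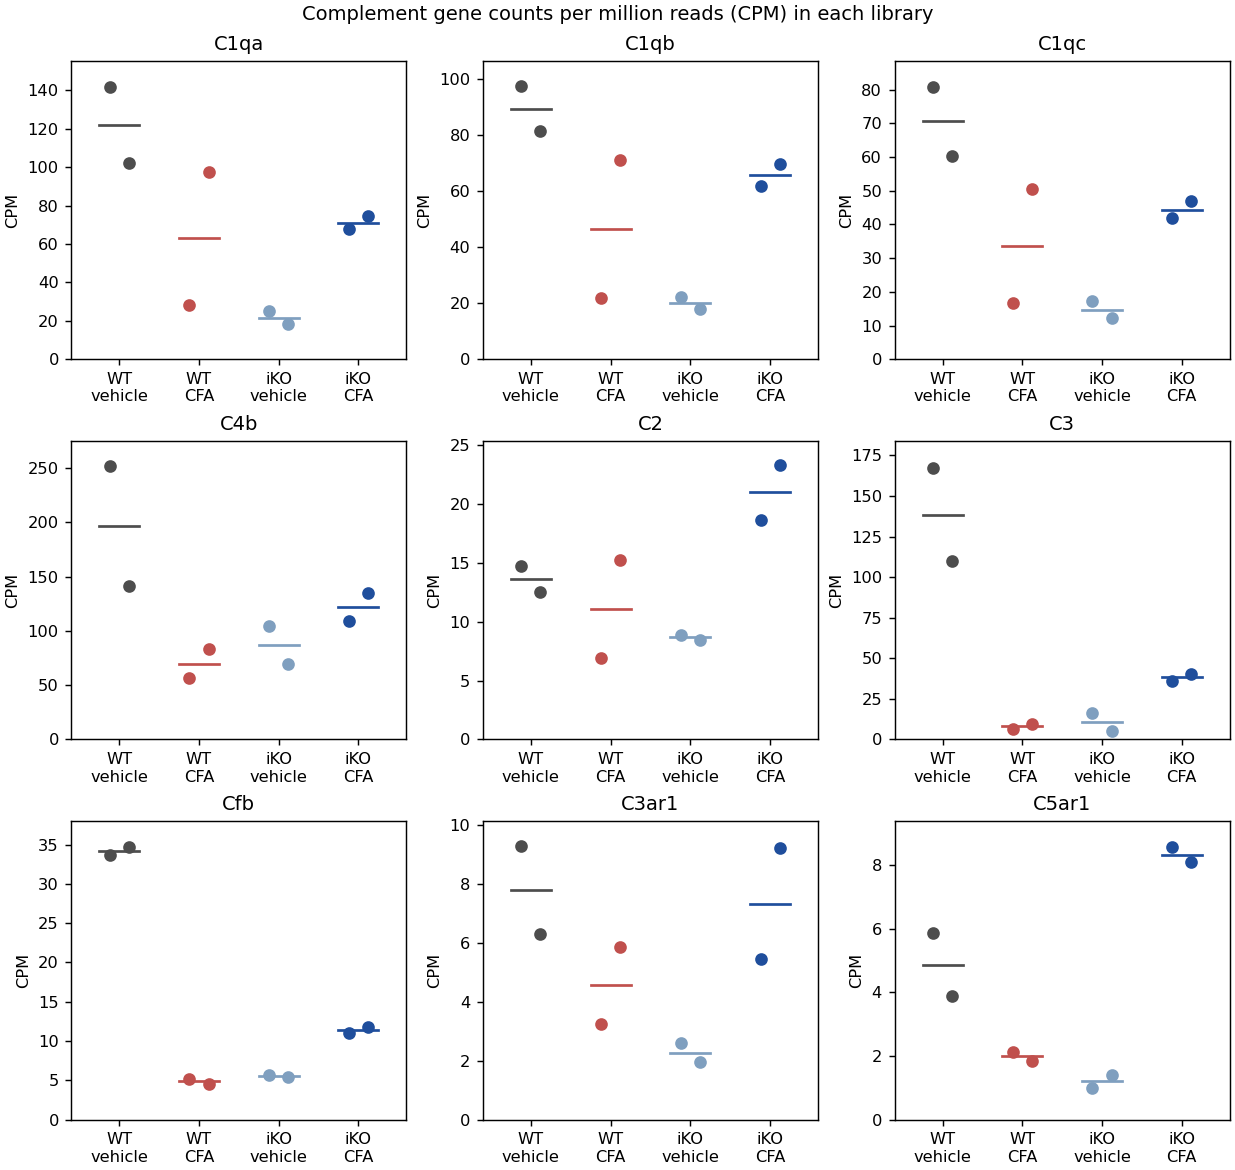
Level of each complement gene in each library, in CPM on a linear axis that starts at 0 and differs between panels; points are libraries and short lines are group means (2 libraries a group). C3 and Cfb are far higher in both WT vehicle libraries than in the 6 others, while the C1q chains are high in WT vehicle, WT CFA library 2 and iKO CFA.

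The 3 chains of C1q moved almost as 1 gene. C1qa stood at 142 and 102 CPM in WT vehicle, 28.3 and 97.5 in WT CFA; the iKO libraries had 25.2 and 18.3 with vehicle and 68.0 and 74.3 with CFA. C1qb stood at 97.4 and 81.6 CPM in WT vehicle, 22.1 and 71.2 in WT CFA; the iKO libraries had 22.3 and 18.1 with vehicle and 61.9 and 69.9 with CFA. C1qc stood at 80.8 and 60.3 CPM in WT vehicle, 16.7 and 50.4 in WT CFA; the iKO libraries had 17.2 and 12.2 with vehicle and 41.8 and 47.0 with CFA. In each chain, WT CFA library 1 lay near the iKO vehicle libraries, while WT CFA library 2 lay between iKO CFA library 2 and WT vehicle library 2. Such a gap within 1 group was shown by no other pair of libraries for these genes.

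Under vehicle, all 3 chains fell from WT to iKO: C1qa by 2.48 ± 0.50 on the log2 scale (5.60-fold, adjusted p = 0.0141), C1qb by 2.15 ± 0.45 (adjusted p = 0.0166) and C1qc by 2.26 ± 0.45 (adjusted p = 0.0143). Each of these calls failed without WT vehicle library 1 or either iKO vehicle library (adjusted p between 0.0671 and 0.128), and that of C1qb also without WT vehicle library 2 (0.0513). Over all 16 alternatives their adjusted p ran from 1.53e-06 to 0.128. In WT, the changes from vehicle to CFA were -0.95 ± 0.48 for C1qa, -0.94 ± 0.44 for C1qb and -1.07 ± 0.44 for C1qc (adjusted p = 0.196, 0.169 and 0.123). Without WT CFA library 2 they were -2.10, -2.02 and -2.08, and all 3 passed (adjusted p = 3.2e-04, 1.42e-04 and 3.46e-04). In iKO, the changes were 1.71 ± 0.49, 1.70 ± 0.45 and 1.59 ± 0.45 (adjusted p = 0.101, 0.0979 and 0.101). The response to CFA differed between genotypes by 2.66 ± 0.68, 2.65 ± 0.63 and 2.67 ± 0.62 (adjusted p = 0.0452, 0.0371 and 0.0359). Each of these differences was lost on leaving out any of the 6 libraries other than WT CFA (adjusted p = 0.0672 to 0.2). Under CFA, iKO and WT did not differ past the threshold in any chain: C1qa 0.18 ± 0.47, C1qb 0.50 ± 0.44 and C1qc 0.41 ± 0.43. Those 3 estimates were -0.45, -0.11 and -0.18 without WT CFA library 1, and 1.32, 1.57 and 1.40 without WT CFA library 2, where all 3 passed.

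The A chain was higher relative to the B chain in WT than in iKO, a measure that does not depend on library scaling. The ratio of C1qa to C1qb reads was 1.45 and 1.25 in WT vehicle, 1.28 and 1.37 in WT CFA; the iKO libraries had 1.13 and 1.01 with vehicle and 1.10 and 1.06 with CFA. All 4 WT libraries lay above all 4 iKO libraries. The exact 95% binomial interval of the lowest WT ratio was 1.189 to 1.316, and that of the highest iKO ratio was 1.03 to 1.24, so the counting intervals of these neighbours overlapped. The ratio of C1qa to C1qc was 1.69 to 1.93 in WT and 1.47 to 1.63 in iKO. The ratio of C1qb to C1qc overlapped between genotypes (1.21 to 1.41 in WT, 1.29 to 1.49 in iKO). These ratios were looked at as descriptions and were not tested.

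The promoters of C1qb and C1qc are shown because the chains moved together while the data hold no measure of their control. The RefSeq table (GRCm38.p6) held an entry, 250 bases before to 50 after the start, for 5 of the 9 genes: C1qb, C1qc, C3, C3ar1 and C5ar1. C1qb lies at chr4:136886151-136886450 and C1qc at chr4:136892865-136893164, both on the minus strand. Each is printed 5′ to 3′ along its gene, and capitals mark matches to any of 5 motifs searched on both strands: GAS (TTCNNNGAA), ISRE (GAAA, any 2 bases, GAAA), kappa B (GGGA, any 4 bases, CC), C/EBP (TTGCNNAA) and AP-1 (TGANTCA).
C1qb: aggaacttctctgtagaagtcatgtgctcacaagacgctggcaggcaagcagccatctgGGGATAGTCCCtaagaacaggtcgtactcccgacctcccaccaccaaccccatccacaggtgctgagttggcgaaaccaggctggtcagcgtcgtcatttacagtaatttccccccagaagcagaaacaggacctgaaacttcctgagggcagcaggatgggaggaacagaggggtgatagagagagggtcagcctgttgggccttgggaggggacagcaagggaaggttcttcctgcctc
C1qc: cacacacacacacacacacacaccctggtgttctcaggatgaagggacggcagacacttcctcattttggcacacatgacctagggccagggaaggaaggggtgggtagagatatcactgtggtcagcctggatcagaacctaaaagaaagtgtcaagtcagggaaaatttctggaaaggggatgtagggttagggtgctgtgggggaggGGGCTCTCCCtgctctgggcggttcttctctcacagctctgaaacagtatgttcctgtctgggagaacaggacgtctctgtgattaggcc
C1qb held overlapping kappa B matches on both strands, starting at -191 and -190 from the start, and C1qc held 1 on the minus strand at -40. Of 32851 promoters of the same length, 20.7% held a kappa B match, 8.30% GAS, 3.44% ISRE, 10.8% C/EBP and 7.81% AP-1. A match describes letters and not a bound site.

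C4b and C2 supply the enzyme that follows C1q, and their estimates were smaller than those of C3 in every comparison. C4b stood at 252 and 142 CPM in WT vehicle, 56.1 and 82.9 in WT CFA; the iKO libraries had 104 and 69.2 with vehicle and 110 and 135 with CFA. Both WT vehicle libraries were above all others. C4b fell from vehicle to CFA in WT by 1.5 ± 0.33 (2.83-fold, adjusted p = 0.0212) and from WT to iKO under vehicle by 1.18 ± 0.33 (adjusted p = 0.0421). The first call did not hold without WT vehicle library 1 (-1.02, adjusted p = 0.185) and when only the libraries of the comparison were fitted (0.0764), with 2.13e-04 to 0.185 over 16 alternatives. The second failed without WT vehicle library 1 (-0.72, adjusted p = 0.327) or any of the 4 iKO libraries (0.0693 to 0.261), with 0.00307 to 0.327 over 16 alternatives. After CFA in iKO, C4b changed by 0.50 ± 0.33 (adjusted p = 0.341), the smallest estimate of the 9 genes, and from WT to iKO under CFA by 0.82 ± 0.33 (adjusted p = 0.301). Its responses differed between genotypes by 2.0 ± 0.47 (adjusted p = 0.0359), a call that failed without WT vehicle library 1 (0.160) or each iKO library in turn (0.0654 to 0.144).

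C4b has a near-identical neighbour, C4a, and how the read counter split reads between such copies is not given in the sources used here. C4a had 37 and 40 reads in WT vehicle, 0 in both WT CFA libraries, 1 and 3 in iKO vehicle, and 1 in each iKO CFA library. C4b held 119 to 4928 reads for each C4a read in the 6 libraries where C4a had any, and whether reads that match both genes were dropped was not tested.

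C2 stood at 14.7 and 12.5 CPM in WT vehicle, 6.94 and 15.2 in WT CFA; the iKO libraries had 8.87 and 8.47 with vehicle and 18.7 and 23.3 with CFA. It was the 1 gene of the 9 whose WT CFA and WT vehicle libraries overlapped, and its highest values were those of both iKO CFA libraries. None of its changes passed the test: -0.30 ± 0.34 for CFA in WT (adjusted p = 0.575), 1.27 ± 0.34 for CFA in iKO (0.0994), -0.65 ± 0.34 for iKO against WT under vehicle (0.208), 0.93 ± 0.34 under CFA (0.252) and 1.58 ± 0.48 for the difference between responses (0.0708). Without WT CFA library 2, C2 passed for CFA in WT (-0.97, adjusted p = 0.0105); without WT CFA library 1 that estimate was 0.15. The difference between responses passed without WT CFA library 1 (adjusted p = 0.0201) or library 2 (2.48e-04) and with DESeq2 (0.0248), with 2.48e-04 to 0.261 over 14 alternatives.

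C3, the protein on which all pathways converge, had the largest changes of the 9 in WT, between genotypes and in the difference between responses. C3 stood at 167 and 110 CPM in WT vehicle, 6.52 and 9.82 in WT CFA; the iKO libraries had 16.3 and 5.05 with vehicle and 36.0 and 40.4 with CFA. WT vehicle was far above every other library, and iKO CFA was above the 4 that remained. In WT, C3 fell after CFA by 4.09 ± 0.52 (17.0-fold, adjusted p = 0.00323), and from WT to iKO under vehicle it fell by 3.69 ± 0.51 (12.9-fold, adjusted p = 0.0038). Both calls held in all 16 alternatives of each comparison. From vehicle to CFA in iKO the change was 1.83 ± 0.48 (adjusted p = 0.0977), and from WT to iKO under CFA 2.23 ± 0.49 (4.69-fold, adjusted p = 0.0683). The latter passed in 6 of 16 alternatives, among them without WT CFA library 2 (2.54), without either iKO vehicle library (adjusted p = 0.0143 and 0.0142) and with DESeq2 (1.28e-04), with 1.28e-04 to 0.287 over all 16. The responses of the genotypes differed by 5.92 ± 0.70 (adjusted p = 0.00357), which held in all 14 alternatives (adjusted p at most 0.0288).

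The C3 promoter is shown because C3 moved most of the 9 in every comparison but CFA in iKO and held the most motif matches of the 5 promoters found. It lies at chr17:57228087-57228386 on the minus strand (GRCm38.p6, RefSeq), with matches in capitals as above.
C3: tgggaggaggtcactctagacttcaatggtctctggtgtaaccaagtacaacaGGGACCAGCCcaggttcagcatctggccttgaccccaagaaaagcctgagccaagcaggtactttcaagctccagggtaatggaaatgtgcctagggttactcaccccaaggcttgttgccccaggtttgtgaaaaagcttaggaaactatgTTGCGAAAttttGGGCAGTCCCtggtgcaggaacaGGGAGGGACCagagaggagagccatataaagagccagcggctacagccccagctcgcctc
C3 held 3 kappa B matches, at -197 and -10 on the plus strand and at -33 on the minus strand, and 1 C/EBP match at -45. C3ar1 held an AP-1 match at -22, and C5ar1 held no match to the 5 motifs in this window.

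Cfb had the smallest errors of the 9 genes. Cfb stood at 33.7 and 34.7 CPM in WT vehicle, 5.21 and 4.59 in WT CFA; the iKO libraries had 5.71 and 5.45 with vehicle and 11.0 and 11.8 with CFA. Its libraries agreed closely within each group, and iKO CFA lay between WT vehicle and the other groups. It fell from vehicle to CFA in WT by 2.80 ± 0.20 (6.97-fold, adjusted p = 2.96e-04) and from WT to iKO under vehicle by 2.61 ± 0.20 (6.12-fold, adjusted p = 3.32e-04), and both calls held in all 16 alternatives. After CFA in iKO the change was 1.02 ± 0.19 (adjusted p = 0.0831). Under CFA, Cfb was higher in iKO by 1.21 ± 0.19 (2.32-fold, adjusted p = 0.0211). That call was lost without any 1 of the WT vehicle or iKO libraries (adjusted p = 0.0576 to 0.165), without both WT vehicle libraries (0.0764) and with the libraries of the comparison alone (0.264), while the estimate stayed between 1.12 and 1.31. The responses differed by 3.83 ± 0.28 (adjusted p = 0.00108), which held in all 14 alternatives. C2 and Cfb are adjacent genes, and whether the counting used strand is not given in the sources used here. The ratio of Cfb to C2 was 2.29 to 2.77 in WT vehicle against 0.302 to 0.750 in the 6 other libraries, with no overlap.

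The receptors are genes of low level here, and C5ar1 had the largest change of the 9 in iKO after CFA. C5ar1 stood at 5.86 and 3.87 CPM in WT vehicle, 2.14 and 1.85 in WT CFA; the iKO libraries had 1.0 and 1.41 with vehicle and 8.56 and 8.09 with CFA. Its highest values were in iKO CFA, above WT vehicle, which none of the C1q chains, C4b, C3 or Cfb showed. Under vehicle, it fell from WT to iKO by 2.01 ± 0.35 (adjusted p = 0.00808), and under CFA it was higher in iKO by 2.06 ± 0.34 (4.17-fold, adjusted p = 0.0243). Removal of WT vehicle library 1 (adjusted p = 0.0757) or of either iKO vehicle library (0.0838 and 0.0566) ended the vehicle call. The CFA call was lost without either iKO CFA library (0.138 and 0.147) and with the libraries of the comparison alone (0.135). In WT, C5ar1 fell from vehicle to CFA by 1.28 ± 0.34 (adjusted p = 0.0343), a call lost in 8 of 16 alternatives, among them without WT vehicle library 1 (-0.96, adjusted p = 0.241), WT vehicle library 2 (0.0527) or each iKO library in turn (0.061 to 0.0752). In iKO, the change was 2.79 ± 0.35 (6.90-fold, adjusted p = 0.0522). It passed in 7 of 17 alternatives, with 9.17e-09 to 0.394 over them. The responses differed by 4.07 ± 0.48 (adjusted p = 0.00357), which held in all 14 alternatives (adjusted p at most 0.0252).

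C3ar1 stood at 9.28 and 6.29 CPM in WT vehicle, 3.26 and 5.85 in WT CFA; the iKO libraries had 2.60 and 1.95 with vehicle and 5.45 and 9.21 with CFA. It fell from WT to iKO under vehicle by 1.77 ± 0.41 (adjusted p = 0.0231), lost without WT vehicle library 1 (0.183) or either iKO vehicle library (0.103 and 0.168). Its changes from vehicle to CFA were -0.78 ± 0.40 in WT (adjusted p = 0.210) and 1.69 ± 0.41 in iKO (0.0943), and the difference between them was 2.46 ± 0.57 (0.0352), a call lost on leaving out any of the 6 libraries other than WT CFA (0.0554 to 0.167). Its change in WT passed without WT CFA library 2 (-1.25, adjusted p = 0.0408). Under CFA it changed by 0.69 ± 0.40 from WT to iKO (adjusted p = 0.459) and passed in none of the 16 alternatives. The ratio of C5ar1 to C3ar1 reads was 0.878 to 1.57 in iKO CFA and 0.316 to 0.721 in all other libraries.

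**Figure D2:**
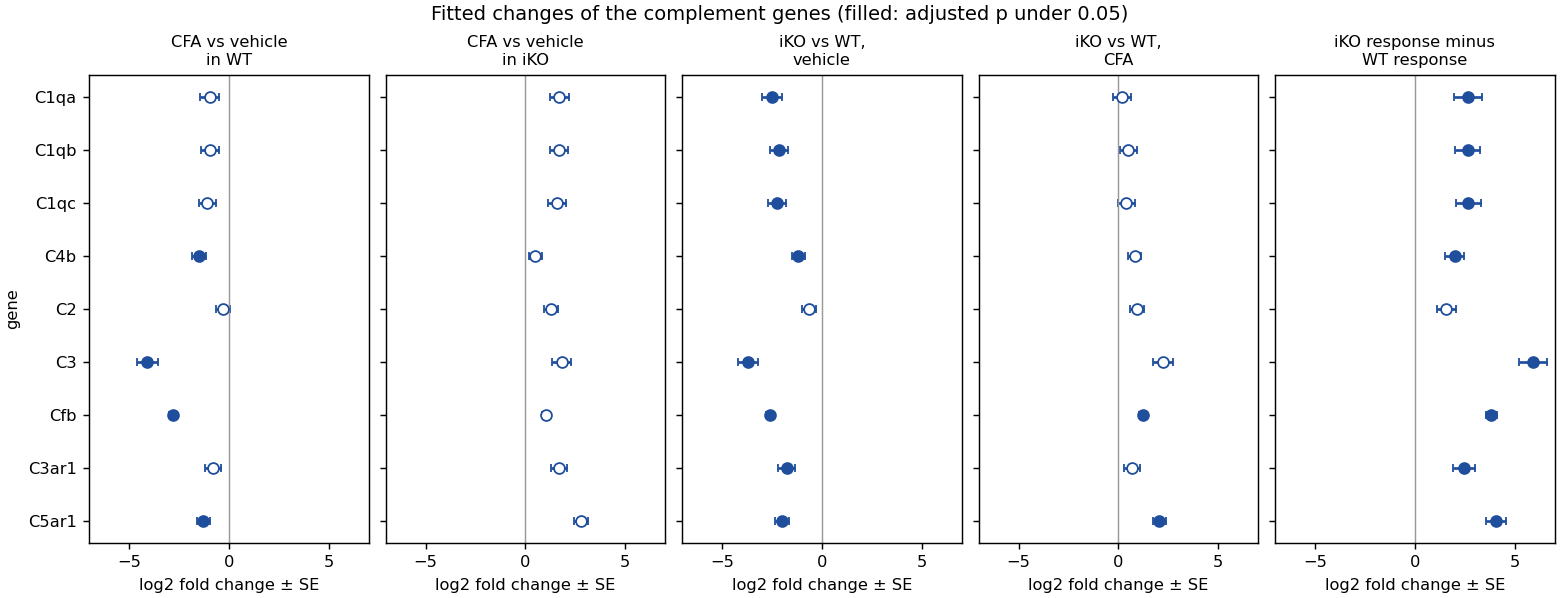
Log2 fold change of each complement gene in each comparison; dots are estimates, bars are ± 1 SE, and filled dots have an adjusted p under 0.05. Estimates for CFA in WT and for iKO against WT under vehicle all lie below 0, those for CFA in iKO and for iKO against WT under CFA all lie above it, and 8 of 9 differences between responses are filled.

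Read by comparison, the share of the 9 genes called was above that of all genes in each contrast but CFA in iKO, and the counts moved with single libraries. From vehicle to CFA in WT, 4 of 9 fell (C3, Cfb, C4b and C5ar1) and 0 rose, where 8.71% of all genes fell, 8.12% rose and 16.8% changed in either direction. The count was 9 without WT CFA library 2 and 2 without WT vehicle library 1. The libraries of 8 genes did not overlap and were lower after CFA, which held for 30.8% of all genes, while 25.3% did not overlap and were higher. From vehicle to CFA in iKO, 0 of 9 passed edgeR's test, where 0.0395% of all genes passed it, and 8 of 9 had an unadjusted p under 0.05, as had 5791 genes in all. DESeq2 called 8 of the 9 higher, the fit to the iKO libraries alone called 9, and leaving out either or both WT CFA libraries gave 8. All 9 had higher values in both iKO CFA libraries than in both iKO vehicle libraries, as did 33.9% of all genes, while 35.6% had lower ones.

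From WT to iKO under vehicle, 8 of 9 fell, all but C2, where 9.33% of all genes fell, 8.28% rose and 17.6% changed in either direction. All 9 had lower values in both iKO vehicle libraries than in both WT vehicle libraries, as did 36.5% of all genes, while 38.9% had higher ones. The count was 2 without WT vehicle library 1 or either iKO vehicle library, C3 and Cfb being the pair called each time. From WT to iKO under CFA, Cfb and C5ar1 rose, 2 of 9, where 1.5% of all genes rose and 1.7% changed in either direction. The count was 8 without WT CFA library 2, 1 without either WT vehicle library, and 0 without either iKO CFA library. Values of 5 genes (C2, C4b, C3, Cfb and C5ar1) did not overlap and were higher in iKO, as were those of 21.6% of all genes, while those of 16.7% did not overlap and were lower. The median change of the 9 genes was -1.07 for CFA in WT, 1.69 for CFA in iKO, -2.15 for genotype under vehicle and 0.82 for genotype under CFA, against -0.03, -0.00, 0.01 and -0.02 over all genes. CFA in WT and genotype under vehicle share the WT vehicle libraries, and each other pair of a CFA and a genotype contrast shares a group too, so their signs are not separate observations. The difference between responses passed for 8 genes over all libraries, for 3 (C3, Cfb and C5ar1) without WT vehicle library 1 or each iKO library in turn, for 4 without WT vehicle library 2, and for 9 without either WT CFA library.

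Macrophage markers, the 15 genes such as Csf1r, Aif1 and Cd68 listed for the cells that make C1q, moved with these results. Their summed level was 863 to 1201 CPM in WT vehicle, 288 to 603 in WT CFA, 247 to 339 in iKO vehicle and 845 to 916 in iKO CFA, and none of the 15 was at 0 in any library. From WT to iKO under vehicle 13 of the 15 fell and 1 rose, where 9.33% and 8.28% of all genes did. In WT, 5 fell after CFA, where 8.71% of all genes fell. For 10 the difference between responses was positive and passed, as it was for 6.19% of all genes. Neutrophil markers summed to 28.7 to 53.7 CPM in WT vehicle, 27.5 to 249 in WT CFA, 66.0 to 98.7 in iKO vehicle and 1482 to 1486 in iKO CFA, the group where C5ar1 was highest. Lymphocyte and plasma cell markers were highest where C3 and Cfb were. Hepatocyte markers, for the tissue that secretes much of the complement of blood, summed to 3.28 to 12 CPM. Fibroblast, Schwann cell and endothelial marker sums were also higher in iKO CFA than in iKO vehicle. They were 3070 to 3250 against 1386 to 1434, 15563 to 16911 against 6405 to 7310, and 212 to 222 against 104 to 115 CPM. Pan-neuronal markers were lower, at 15313 to 15436 against 21573 to 21980 CPM. Between WT vehicle and WT CFA, fibroblast, Schwann cell and endothelial sums overlapped, while neuronal sums were higher in WT CFA. The part of any of these cells in the results was not tested.

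Set against the summed macrophage markers of the same library, the complement genes separated. C1qa was 11.8% of that sum in both WT vehicle libraries, 9.82% to 16.2% in WT CFA, 7.38% to 7.45% in iKO vehicle and 8.04% to 8.11% in iKO CFA, so it was lower in every iKO library than in every WT library. C3 was 12.8% to 13.9% in WT vehicle, 1.63% to 2.26% in WT CFA, 2.04% to 4.81% in iKO vehicle and 4.26% to 4.41% in iKO CFA. C3 was thus lower outside WT vehicle relative to these markers as well as in CPM. Cfb was 2.81% to 4.02% in WT vehicle and 0.761% to 2.2% in the other libraries. C2 was lowest in WT vehicle, at 1.23% to 1.45% against 2.21% to 3.42% in the other libraries, with no overlap. C4b was highest in iKO vehicle, at 28.0% to 30.7% against 13.0% to 21.0% elsewhere. C3ar1 ranged from 0.645% to 1.13% over all 8 libraries with no separation of groups. C5ar1 was 0.883% to 1.01% in iKO CFA and 0.296% to 0.741% elsewhere. The ratio of C3 to C1qa was 1.08 to 1.18 in WT vehicle and 0.101 to 0.647 in the other libraries.

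**Figure D3:**
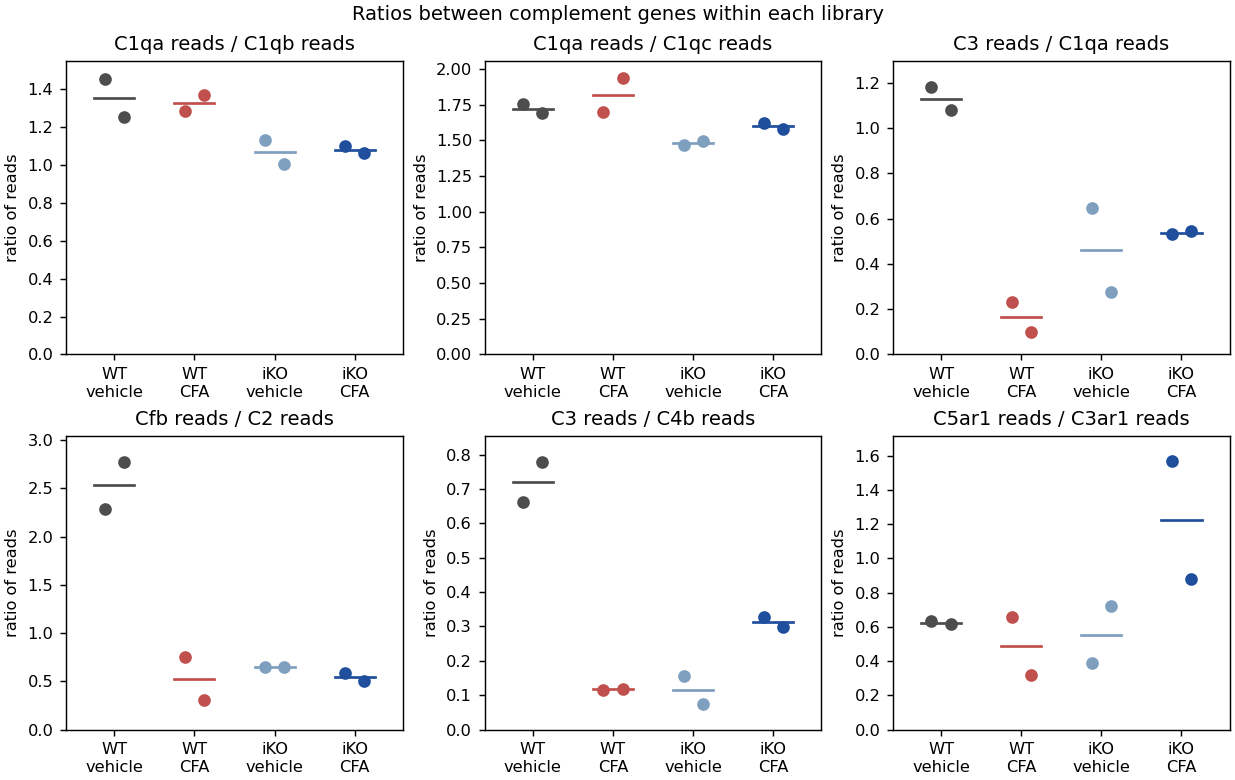
Ratios of reads between pairs of complement genes in each library; points are libraries, short lines are group means, and axes start at 0. The ratio of C1qa to C1qb is 1.25 to 1.45 in the WT libraries and 1.01 to 1.13 in the iKO libraries, and C3 against C1qa is highest in WT vehicle.

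Divided by exon length (GENCODE vM21 models), the C1q chains and C4b led in every group. In WT vehicle, C1qa had 117 ± 26.9 CPM per kb (SD, n = 2 here and below) and C1qb 82.3 ± 10.3, followed by C1qc at 36.5 ± 7.49, C4b at 34.5 ± 13.7 and C3 at 26.9 ± 7.81. The means ± SD of C1qc, C4b and C3 overlapped. All genes were measured in the same libraries, so these SDs do not give the spread of a difference between genes. Cfb followed with 12.1 ± 0.241 and C2 with 3.52 ± 0.408, and the means ± SD of C5ar1 (1.89 ± 0.548) and C3ar1 (1.81 ± 0.492) overlapped. In WT CFA, C3 lay below C2 in this order with 1.59 ± 0.454 CPM per kb, beside Cfb with 1.73 ± 0.156. In iKO vehicle, the mean of C4b (15.2 ± 4.34) ranked above that of C1qc (7.63 ± 1.83). In the other groups C1qc had the higher mean, but the means ± SD of the 2 genes overlapped. In WT CFA, for example, C1qc had 17.4 ± 12.3 and C4b 12.2 ± 3.32. In iKO CFA, C5ar1 (3.24 ± 0.129) stood above C3ar1 (1.70 ± 0.617), while the order from C1qa to C3 was that of WT vehicle.

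The likeness of pattern was measured as Pearson's r of log2 CPM over the 8 libraries, which share 4 groups, among 13678 genes with a mean log2 CPM of at least 1. Between the 9 genes r ran from 0.41 (C2 and Cfb) to 0.996 (C1qa and C1qc), with 0.95 for C3 and Cfb and 0.94 for C3 and C4b. Genes outside the 9 with the highest r were Rps27l (0.991) and Chaserr (0.990) for C1qa, Cd163 (0.997) and Plekhf1 (0.995) for C1qb, and Pycard (0.997) for C1qc. For C3 they were Tgtp1, Cytip and Il2rb (0.989 to 0.994), and for Cfb Samhd1, Hps1 and Jchain (0.985 to 0.991). For C4b they were Pola1 (0.98), Jdp2 and Cdca7 (0.97 each), and for C2 Arhgap29, Emilin1 and Pdlim4 (0.98 to 0.99). For C3ar1 they were Osgin1, Il17ra and Sppl2a (0.98 to 0.99), and for C5ar1 Spry1 (0.99), Arap3 and Ifitm1 (0.97 each).

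Of 46 other genes of the complement pathway listed, 43 were in the files and 39 were tested. The terminal component C5, encoded by Hc, was the clearest of them by genotype. Hc stood at 1.14 and 1.01 CPM in WT vehicle, 0.694 and 0.684 in WT CFA; the iKO libraries had 14.9 and 16.7 with vehicle and 8.92 and 6.80 with CFA, so every iKO library was above every WT library. Hc was higher in iKO by 3.87 ± 0.29 under vehicle (14.7-fold, adjusted p = 3.19e-04, held in all 16 alternatives) and by 3.50 ± 0.29 under CFA (11.3-fold, adjusted p = 9.59e-04). The CFA call was lost only when the libraries of that comparison were fitted alone (0.0674). The direction was opposite to that of C3 under vehicle. Its responses to CFA did not differ past the threshold (-0.37 ± 0.39, adjusted p = 0.553).

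Cfd, the protease that activates factor B and a product of adipocytes, stood at 0.536 and 0.774 CPM in WT vehicle, 1.39 and 5.92 in WT CFA; the iKO libraries had 0.392 and 0.115 with vehicle and 28.8 and 44.0 with CFA. It rose after CFA in iKO by 7.11 ± 0.80 (adjusted p = 0.0382) and in WT by 2.45 ± 0.69 (0.0432), and it was higher in iKO under CFA by 3.33 ± 0.63 (0.0414). That last call was lost in 6 of 16 alternatives: without either WT vehicle library (0.0959 and 0.0993) or both (0.116), without either iKO CFA library (0.116 and 0.251) and with the libraries of the comparison alone (0.261). The call in iKO was lost without any 1 WT vehicle or iKO library (adjusted p = 0.110 to 0.394), and that in WT in 11 of 16 alternatives, among them without either WT vehicle library (0.274 and 0.145) or WT CFA library 2 (1.07, 0.113). Adipocyte markers summed to 56.2 to 74.6 CPM in iKO CFA and to 5.58 to 24.2 elsewhere, and their part in this result was not tested. Serping1, the inhibitor of C1, ranged from 122 to 225 CPM and passed in no comparison.

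In WT after CFA, 4 of the 39 rose and 7 fell (median -0.71), where 8.12% and 8.71% of all genes did. Itgax, a chain of the receptor CR4, fell by 4.89 ± 0.53 (adjusted p = 0.0017), and Itgb2, the chain it pairs with, fell by 2.18 ± 0.44 (0.015). C1s1, a protease of C1, fell by 1.44 ± 0.32 (0.0205) and Cfp, properdin, by 1.68 ± 0.43 (0.0325), while Cd55, an inhibitor on cell surfaces, rose by 0.78 ± 0.20 (0.0324) and Cpn1, which inactivates C3a and C5a, by 1.20 ± 0.32 (0.0357). Without WT vehicle library 1, all of these but Itgax were lost. Of 16 alternatives, Itgax passed in all 16, Itgb2 in 15, C1s1 in 13, Cfp in 10, Cd55 in 9 and Cpn1 in 7. From WT to iKO under vehicle, 5 rose and 8 fell (median -0.37), where 8.28% and 9.33% of all genes did. Cpn1 rose by 2.0 ± 0.32 (0.00629) and Clu, a regulator of the terminal complex, by 1.29 ± 0.24 (0.0102), while C1s1 fell by 1.97 ± 0.32 (0.00681), Itgax by 2.77 ± 0.46 (0.00693) and Itgb2 by 2.60 ± 0.45 (0.00803). All 5 were lost without WT vehicle library 1 (adjusted p = 0.0757 to 0.0961), and each also without at least 1 iKO vehicle library (0.0545 to 0.0909).

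In iKO after CFA, Cfd alone passed (1 rose, 0 fell, median 0.66), where 0.0395% of all genes rose. From WT to iKO under CFA, 6 rose and 0 fell (median 1.21), where 1.5% and 0.208% of all genes did. Beside Hc and Cfd, those that rose included Itgam (1.88 ± 0.35, adjusted p = 0.0394), Itgb2 (2.21 ± 0.44, 0.0483) and Itgax (2.56 ± 0.51, 0.0483). The calls of these 3 integrin chains of the receptors CR3 and CR4 were lost in most of 16 alternatives. Itgam passed in 6, Itgb2 in 7 and Itgax in 3. All 3 were lost without either WT vehicle library or either iKO CFA library. They were also lost with RLE scaling in place of TMM, with the replicate block and with the libraries of the comparison alone. The difference between responses was positive for 8 and negative for 1 that passed (median 1.37), where 6.19% and 3.17% of all genes were. The negative one was Cpn1 (-1.77 ± 0.44, adjusted p = 0.0428), named after its value was seen. The values of Itgax were 11.0 and 8.40 CPM in WT vehicle, 0.214 and 0.445 in WT CFA; the iKO libraries had 1.72 and 1.12 with vehicle and 1.39 and 2.44 with CFA, so that, like C3, it stood apart in WT vehicle. C1s1 stood at 62.0 and 44.4, 13.3 and 26.0, 15.2 and 11.9, and 33.7 and 33.1 CPM in the same order of groups.

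**Figure D4:**
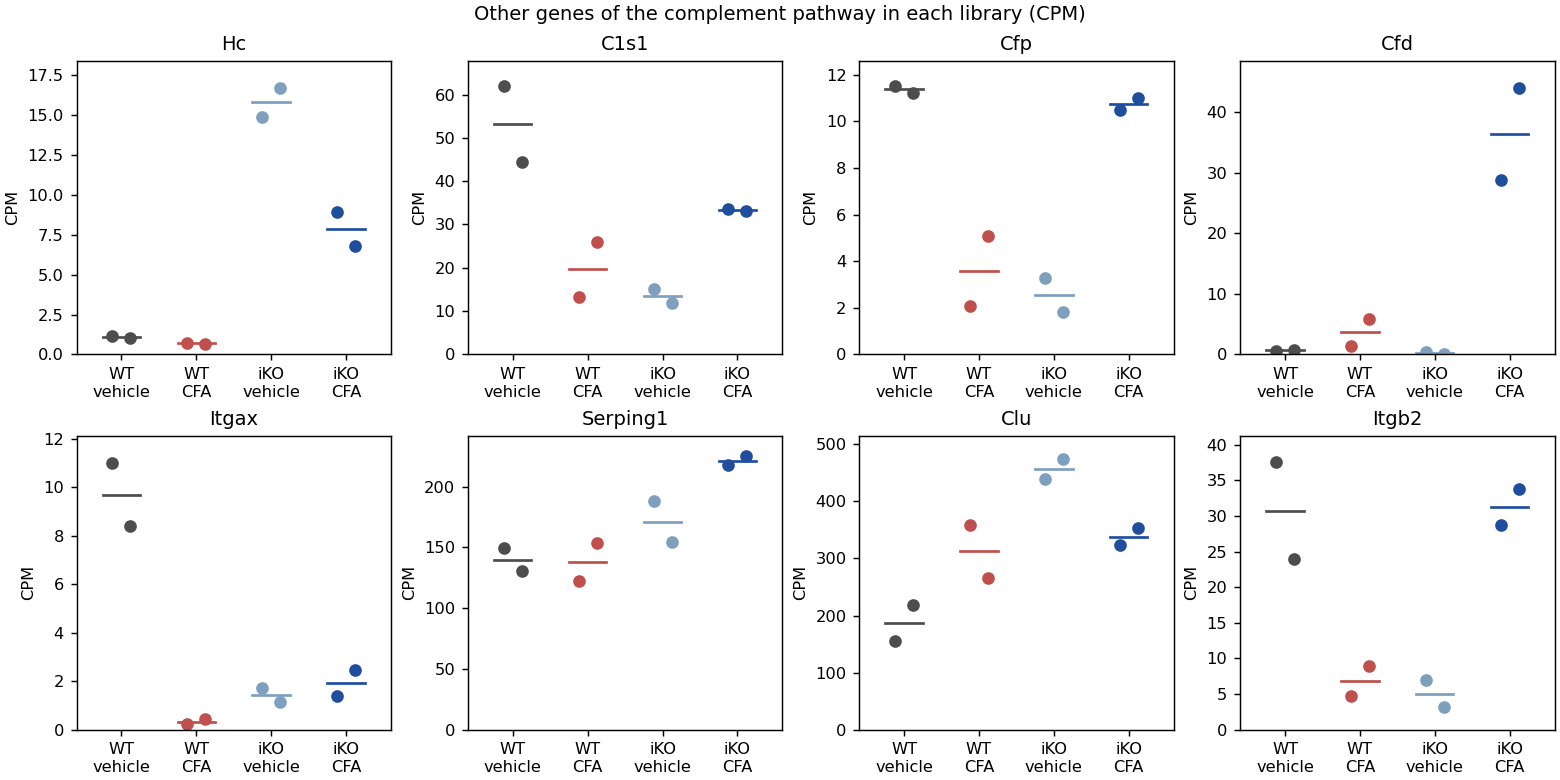
Levels of other complement genes in each library, in CPM on axes that start at 0; points are libraries and short lines are group means (2 libraries a group). Hc is at 6.80 to 16.7 CPM in the iKO libraries and 0.684 to 1.14 in the WT libraries, Cfd is highest in iKO CFA, and Itgax is highest in WT vehicle.

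Since C2, Cfb and C4b lie near Ehmt2 on chromosome 17, the genes around it were set beside them. By the RefSeq order of protein-coding genes, C2 lies 2 genes from Ehmt2, Cfb 3 and C4b 9, all on the same side. The files held 28 other listed genes of this region, and all 28 were tested. From WT to iKO under vehicle, 4 rose and 4 fell (median 0.30), where 8.28% and 9.33% of all genes did. Csnk2b rose by 1.21 (adjusted p = 0.00593) and Agpat1 by 0.93 (0.00938), while Hspa1b fell by 1.72 (0.00711). Of genes beside the complement genes, named after their values were seen, Zbtb12, between Ehmt2 and C2, fell by 1.52 (0.0447), and Tnxb, next to C4b, fell by 0.93 (0.0233). The genes with counts between Cfb and C4b, also named after their values were seen, did not pass. These were Nelfe (0.21, adjusted p = 0.449), Skiv2l (0.32, 0.304), Dxo (-0.40, 0.230) and Stk19 (-0.01, 0.986). After CFA in WT, 6 rose and 3 fell (median 0.36), where 8.12% and 8.71% of all genes did. The difference between responses was negative for the 3 neighbours that passed, whereas it was positive for Cfb and C4b, which passed, and for C2, which did not pass. Under vehicle, neighbours changed in both directions, while the estimates of C2 (-0.65, not past the threshold), Cfb (-2.61) and C4b (-1.18) were negative. The calls of the neighbours were not followed over the alternatives, and the part of position near Ehmt2 was not tested.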

How the data were processed

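Total RNA from mouse dorsal root ganglia was extracted with an RNeasy kit, per the labels' protocols. Per the submitters' processing notes, the authors used HISAT2 2.2.1, SAMtools 1.19.2, featureCounts 2.0.6, DESeq2 and the build GRCm39 (mm39). The annotation and strand setting are not given in the sources used here. The deposited values were whole-number counts of reads per gene symbol, with no scaling, and 0 columns belonged to other samples.

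The counts went into edgeR 4.0.16 (R 4.3.3): filterByExpr kept 20235 genes with at least 99.9% of the reads of each library, TMM scaled the libraries, and 1 quasi-likelihood model with a mean for each of the 4 groups was fitted to all 8 libraries, so that groups of 2 share 1 estimate of the spread. Contrasts were tested two-sided, with Benjamini-Hochberg adjustment over all genes and a threshold of 0.05. The step was tested on simulated data with the same dispersion (spread between libraries) for every gene and library. Those data did not copy the wide gap between the WT CFA libraries. Alternatives were other scalings, no low-count filter, edgeR with legacy = FALSE, DESeq2 1.42.0, a replicate block, the libraries of a comparison alone, and leaving out libraries. A crossed block and leaving out both libraries of a WT group were added after seeing the data.

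The 9 genes and all lists were chosen with earlier results of these data known. All 9 were named, with at most 6 other complement genes of smallest p per comparison among those past the threshold with a mean log2 CPM of at least 1, at most 3 neighbours or markers per list and comparison, and 3 genes of highest r per gene. Cfd, Serping1, Hc and C4a were named in any case, and 1 listed gene is not reported here. Lists for fibroblasts, Schwann cells, satellite glia and endothelium were counted too. Exon lengths came from GENCODE vM21 (GRCm38) and gene order from RefSeq (GRCm38.p6), both matched by symbol. No coordinates of the counts' own build were used. Intervals on ratios cover counting error only.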

Additional observations from a re-analysis of the deposited data

Results flagged for a closer look

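For 17 complement genes the response to CFA differed between genotypes in edgeR's test of the difference itself, with Benjamini-Hochberg adjustment over all genes and 2 libraries a group. Of all genes tested, 9.36% passed it, 6.19% with a positive and 3.17% with a negative difference. Each value is the log2 change from vehicle to CFA in iKO minus that in WT.

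Of the 9 genes the report follows, the difference was 5.92 for C3, 4.07 for C5ar1, 3.83 for Cfb, 2.67 for C1qc, 2.66 for C1qa, 2.65 for C1qb, 2.46 for C3ar1 and 2.0 for C4b. In all 8 the estimate was negative in WT and positive in iKO. The calls of C3, C5ar1 and Cfb held in all 14 alternatives. Those of C1qa, C1qb, C1qc and C3ar1 held in 7 of them and that of C4b in 8.

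Of the other complement genes, it was 5.32 for Itgax, 4.81 for Itgb2, 4.65 for Cfd, 3.76 for Cfp, 2.85 for Itgam, 2.74 for C1s1, 2.59 for C1ra, 2.09 for Cd93 and -1.77 for Cpn1. Cd93 and Cpn1 are named here after their values were seen. The difference for Cpn1 was the only negative one among the 17 genes, with estimates of 1.20 in WT and -0.56 in iKO. Cfd had positive estimates in both genotypes (2.45 in WT and 7.11 in iKO). Calls held in all 14 alternatives for Itgax and Itgb2, in 12 for Cfp and C1s1, in 11 for Itgam, in 9 for C1ra and in 8 for Cfd. For this difference, Cd93 and Cpn1 were not followed over the alternatives.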

How the results depend on the processing

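Of 711 values of the 9 genes under alternatives, 563 kept their direction and side of the threshold, 77 lost and 67 gained a call, and 4 changed sign: C2 for CFA in WT (0.15) and C1qa, C1qb and C1qc for iKO against WT under CFA (-0.45, -0.11 and -0.18), each without WT CFA library 1; the cause was not tested. Over the libraries left out 1 at a time, these ran from -0.97 to 0.15, -0.45 to 1.32, -0.11 to 1.57 and -0.18 to 1.40.

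Numbers of the 9 genes called ran, on leaving out 1 library, from 2 to 9 for CFA in WT, 0 to 8 for CFA in iKO, 2 to 9 for genotype under vehicle, 0 to 8 for genotype under CFA and 3 to 9 for the difference between responses. Over all genes these ranges were 259 to 7474, 0 to 6951, 394 to 8464, 73 to 5819 and 228 to 8303, against 3406, 8, 3564, 345 and 1895. With the libraries of a comparison alone, 2, 9 and 0 of the 9 passed for CFA in WT, CFA in iKO and genotype under CFA, and 754, 8309, 8179 and 33 genes in all for these 2 CFA contrasts and both genotype contrasts. For CFA in iKO, no filter gave 2 of 9 and 510 genes, legacy = FALSE gave 1 and 181, DESeq2 gave 8 and 3319, leaving out both WT CFA libraries gave 8 and 6967, and leaving out both WT vehicle libraries gave 0 genes. Without both WT CFA libraries 8303 genes passed for genotype under vehicle. For genotype under CFA, leaving out both WT vehicle libraries gave 1 of 9 and 164 genes, legacy = FALSE 542 and DESeq2 1157. DESeq2 gave 3866 genes for the difference between responses. The share of calls that were higher for CFA in WT was 48.2%, and 7.72% without WT vehicle library 1.

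Replicate numbers did not pair the libraries. The difference in level between the replicates of a group, taken in order of their numbers, was correlated between groups over genes. These differences correlated at -0.144 for WT vehicle with WT CFA and at -0.029 to 0.027 for the other pairs of groups. With the replicate block, 3 of 9 genes passed for the difference between responses and 1062 in all, 0 genes for CFA in iKO and 207 for genotype under CFA. Crossing the WT CFA numbers left 4 of 9 genes and 2910 in all for CFA in WT.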
